A study of Mus musculus with 28 samples.

Results

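The co-receptors and adaptors of the Toll-like receptors were examined as 10 genes, chosen by symbol: *Cd14*, *Ly96*, *Cd180*, *Myd88*, *Tirap*, *Ticam1*, *Ticam2*, *Irak1*, *Irak4* and *Traf6*. All 10 were among the 48587 gene symbols of the count table and among the 15298 genes that passed the filter on low counts. Their RNA was measured in hippocampal microglia of 28 mice.

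Toll-like receptors sense molecules of microbes and of damaged tissue, and microglia, the resident macrophages of the brain, carry many of them. CD14 hands bacterial lipopolysaccharide to a complex of TLR4 and MD-2, the protein encoded by *Ly96*, whereas CD180 is a TLR4-like receptor that works with MD-1, encoded by *Ly86*. Inside the cell, TIRAP brings MYD88 to the receptor, and MYD88 assembles IRAK4 and IRAK1, which act on the ubiquitin ligase TRAF6. TICAM2 (TRAM) brings TICAM1 (TRIF) to internalised TLR4, and TICAM1 is also the adaptor of TLR3. These proteins have been studied in mouse models of Alzheimer's disease because aggregated amyloid-beta can engage CD14 and several Toll-like receptors.

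The mice were 16 weeks old males on a C57BL/6J background. 5xFAD mice were heterozygous for human APP and PS1 transgenes with familial mutations, driven in neurons by the Thy-1 promoter, and WT mice were their littermates without the transgenes. Specific pathogen-free (SPF) mice comprised 5 WT and 3 5xFAD animals, germ-free (GF) mice 4 WT and 5 5xFAD animals, and mice given antibiotics (ABX) 5 WT and 6 5xFAD animals. ABX mice were kept under SPF housing and drank vancomycin, cefoxitin, gentamicin and metronidazol for 8 weeks. The GF mice came from a facility in Bern and the SPF mice were kept in Freiburg, so germ-free life and the source of the animals cannot be told apart. Microglia were sorted as CD11b+CD45low cells after exclusion of cells with lymphocyte, Ly6C or Ly6G staining. Each library was 1 mouse, named here by genotype (FAD for 5xFAD), condition and number as in the labels, and the comparisons asked how the amyloid model, a life without microbes and a later depletion of bacteria were each reflected in the microglial transcriptome.

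Libraries held 14441610 to 29977395 reads. The summed level of 10 microglial marker genes was 65000 to 72700 CPM (counts scaled to the size of the library) in WT and 50700 to 62400 CPM in 5xFAD mice, without overlap, and its part in the differences between the genotypes was not tested. *Cst7*, a marker of plaque-associated microglia, was 531 to 1651 CPM in 5xFAD against 5.65 to 17.0 CPM in WT mice, so each library had the level of its labelled genotype. Mouse FAD_GF_201, whose labels conflict on its genotype, had 774 CPM of *Cst7*. Summed neutrophil markers (10 genes) were 65.6 to 274 CPM in SPF 5xFAD mice and up to 151 CPM in ABX 5xFAD mice, in mouse FAD_ABX_1151, but at most 1.38 CPM in the other groups. Summed markers of border-associated macrophages (7 genes) were 34.0 to 253 CPM in ABX 5xFAD against 3.8 to 5.9 CPM in ABX WT mice, 10.0 to 81.0 against 10.7 to 43.9 CPM in GF, and 16.1 to 29.2 against 3.48 to 8.15 CPM in SPF mice. Summed monocyte markers (6 genes) were 14.4 to 52.0 CPM in ABX 5xFAD against 3.75 to 9.32 CPM in ABX WT mice, 16.4 to 39.0 against 6.76 to 8.57 CPM in SPF and 6.02 to 24.9 against 3.72 to 16.9 CPM in GF mice. Sample names in the labels were of 3 kinds: a running number with a mouse number of 3 digits (all SPF WT and ABX WT mice), with a mouse number of 4 digits (all SPF 5xFAD mice and FAD_ABX_1151), or with condition and genotype (5 mice of ABX 5xFAD and every GF mouse). The labels do not say whether these were processed apart. Genotype and kind of name cannot be told apart in SPF and ABX mice, nor can GF and SPF, but 5xFAD and WT mice under GF conditions were of 1 kind. Mouse FAD_ABX_1482 stood apart on the second principal component. A GC tilt was also measured, as the log2 level, relative to the average library, of the fifth of genes with the highest GC content less that of the fifth with the lowest. It was 0.0585 to 0.31 in GF WT and 0.238 to 0.46 in GF 5xFAD mice, but -0.258 to -0.0656 in SPF WT, -0.254 to -0.0431 in SPF 5xFAD, -0.639 to -0.111 in ABX WT and -0.282 to 0.386 in ABX 5xFAD mice.

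The promoter windows of 3 members whose RNA differed among the groups are shown, because their sequences differ in the binding motifs of macrophage and immune transcription factors. Each runs from 250 bases before to 50 bases after a RefSeq start (GRCm38.p6), 5′ to 3′ on the strand of the gene. Capitals mark matches to the PU.1 core (GGAAGT, or ACTTCC on the other strand), to the interferon element (GAAA, any 2 bases, GAAA) and to the kappaB motif.
*Myd88*, chr9:119339969-119340268, minus strand: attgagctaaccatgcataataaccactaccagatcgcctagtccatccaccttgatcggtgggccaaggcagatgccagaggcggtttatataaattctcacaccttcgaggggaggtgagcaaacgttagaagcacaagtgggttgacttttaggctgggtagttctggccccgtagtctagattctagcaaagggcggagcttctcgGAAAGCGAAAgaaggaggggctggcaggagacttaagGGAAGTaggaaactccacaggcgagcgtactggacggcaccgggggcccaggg
*Cd180*, chr13:102693297-102693596, plus strand: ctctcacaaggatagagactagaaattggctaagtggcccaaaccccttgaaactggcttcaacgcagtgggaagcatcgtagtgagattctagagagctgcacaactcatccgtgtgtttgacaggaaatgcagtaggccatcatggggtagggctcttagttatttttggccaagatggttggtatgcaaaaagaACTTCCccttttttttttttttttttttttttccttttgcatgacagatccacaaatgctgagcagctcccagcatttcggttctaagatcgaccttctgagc
*Irak1*, chrX:74023872-74024171, minus strand: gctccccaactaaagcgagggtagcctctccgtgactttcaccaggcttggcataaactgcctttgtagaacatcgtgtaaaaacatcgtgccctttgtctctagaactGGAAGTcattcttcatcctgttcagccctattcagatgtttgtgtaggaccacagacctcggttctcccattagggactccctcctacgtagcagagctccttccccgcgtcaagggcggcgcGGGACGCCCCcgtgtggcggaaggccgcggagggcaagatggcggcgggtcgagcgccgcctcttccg
The *Myd88* window held an interferon element and a PU.1 core, the *Cd180* window a PU.1 core on the other strand, and the *Irak1* window a PU.1 core and a kappaB match that reads on both strands. Of 32851 mouse windows of this length, 23.8% held the PU.1 core, 3.44% the interferon element and 8.46% the kappaB motif on either strand. Of the 7 members with a window, 4 held the PU.1 core in at least 1 of their 10 windows, and 0 held the AP-1 motif (TGANTCA), which 7.81% of all windows held. The paired windows of *Tirap*, *Cd180* and *Irak1* overlap each other, so these counts are by gene and not on the scale of the shares of windows. These matches are a description of letters and not of bound sites.

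In the count table (GRCm38), the co-receptor genes span chr18:36725074-36726736 on the minus strand (*Cd14*), chr1:16688051-16709611 on the plus strand (*Ly96*) and chr13:102693558-102739629 on the plus strand (*Cd180*). The adaptor genes lie on the minus strand, at chr9:119335934-119341411 (*Myd88*), chr9:35184551-35200291 (*Tirap*), chr17:56269319-56276786 (*Ticam1*) and chr18:46559155-46574533 (*Ticam2*). *Irak1* (chrX:74013914-74023918, minus strand), *Irak4* (chr15:94543643-94581815, plus strand) and *Traf6* (chr2:101678429-101701669, plus strand) complete the set. Of the 10 members, 6 share exon bases with another gene. The shared bases were 14.5% of the exon bases of *Ticam2* (with *Tmed7*), 11.3% of those of *Myd88* (with *Acaa1a*), 9.05% and 0.791% of those of *Tirap* (with *Gm39318* and *Srpr*), 7.87% of those of *Irak4* (with *Twf1*), 4.04% of those of *Cd180* (with *Mast4*), and 1.51% and 1.48% of those of *Irak1* (with the microRNA genes Mir5132 and Mir718). These shares refer to the exons of GENCODE M21, which for *Ticam2* hold 5792 bases where the length in the count table is 3928 bases. The genes that overlap *Ticam2* and *Irak1* lie on the same strand as they do and the others on the opposite strand, which the library kit does not keep, so reads in these stretches cannot be told apart.

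Levels were compared between genes per kilobase of exon (RPKM), averaged over the 28 mice. *Cd14* stood far above the other members at 374.9 RPKM, which placed it at the 99.5th percentile of the genes tested. *Myd88* (41.0), *Ly96* (38.4), *Irak1* (38.1) and *Cd180* (29.3) followed within a narrow range of RPKM. *Ticam2* was at 12.2 RPKM and *Tirap*, *Irak4*, *Traf6* and *Ticam1* were between 5.77 and 7.51 RPKM. Over single mice, *Ly96* varied most, with the highest mouse 3.62 times the lowest, and *Irak1* least, at 1.49 times.

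**Figure D1:**
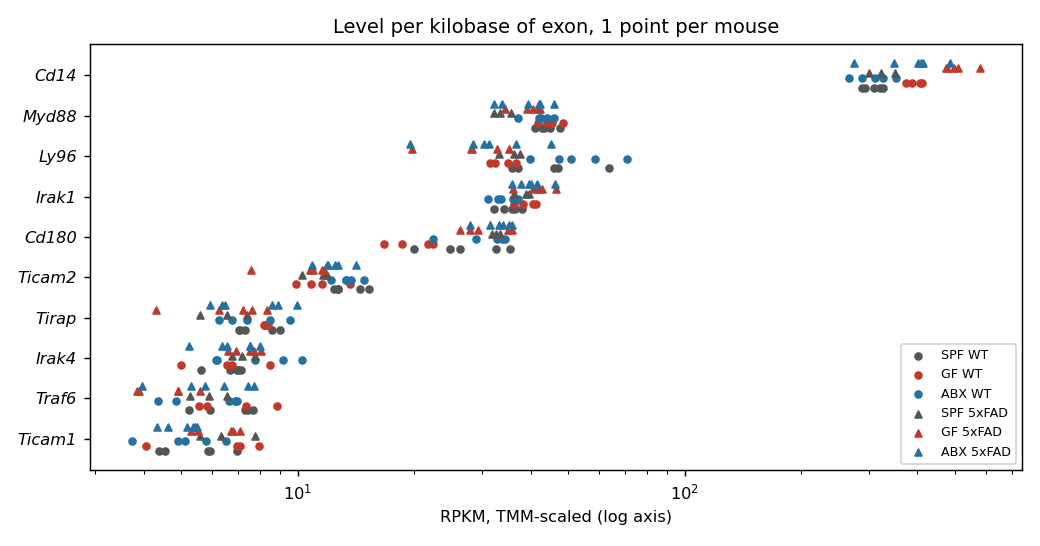
RPKM (TMM-scaled, log axis) of each member, with 1 point per mouse and colour and shape by group. *Cd14* lies between 266 and 581 RPKM in every mouse, above all values of the other 9 genes, whose highest value is 70.8 RPKM.

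Among the 6 groups, 6 of the 10 members differed in the edgeR quasi-likelihood F test at an adjusted p under 0.05, where 33.2% of all genes tested did. The adjusted p-values were 5.2e-06 for *Cd14*, 0.0015 for *Ly96*, 0.00209 for *Cd180*, 0.0268 for *Myd88*, 0.0284 for *Irak1* and 0.0498 for *Ticam2*. *Traf6* (0.105), *Ticam1* (0.261), *Tirap* (0.51) and *Irak4* (0.65) did not pass. Between 5xFAD and WT mice, 1 of 10 members passed under SPF conditions (4.57% of all genes), 3 of 10 under GF (15.6%) and 3 of 10 under ABX conditions (14.4%). *Cd14* rose in GF and ABX mice, *Cd180* rose and *Traf6* fell in GF mice, *Ly96* fell and *Irak1* rose in ABX mice, and *Myd88* fell in SPF mice. The median log2 difference of the members was -0.05, -0.09 and -0.02 in SPF, GF and ABX mice, beside -0.03, -0.03 and -0.01 over all genes tested.

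Between microbial conditions in 5xFAD mice, *Cd14* alone passed when GF was compared with SPF (1 of 10, against 12.8% of all genes) and ABX with GF (1 of 10, against 10.6%), 2 comparisons that share the GF mice. Between ABX and SPF 5xFAD mice, edgeR called 0 of 10 members and 0% of all genes, of which 1085 had an unadjusted p under 0.05. There, *Cd14* and *Myd88* had an unadjusted p under 0.05, and DESeq2 and limma also called 0 members, while they called 8 and 134 of all genes. In WT mice, 3 of 10 members passed between ABX and GF (6.88% of all genes), namely *Cd14*, *Ly96* and *Cd180*. Between GF and SPF WT mice edgeR called 0 of 10 (1.62% of all genes), with 3 at an unadjusted p under 0.05, and DESeq2 called 2 (4.71% of all genes) and limma 1 (10.7%). Between ABX and SPF WT mice 0 of 10 passed (0% of all genes), 0 had an unadjusted p under 0.05, and DESeq2 and limma called 0. Group ranges did not overlap for 2 members between 5xFAD and WT in SPF (16.9% of all genes), 2 in GF (14.8%) and 0 in ABX mice (6.84%). Within 5xFAD mice this held for 1 member between GF and SPF (19.6%), 1 between ABX and SPF (2.39%) and 0 between ABX and GF (2.83%), and within WT mice for 1 (10.7%), 0 (1.22%) and 3 members (10.9%) between GF and SPF, ABX and SPF, and ABX and GF. The effect of 5xFAD was not shown to differ between conditions for any member: edgeR, DESeq2 and limma called 0 of 10 in each of the 3 interaction tests, where edgeR called 0%, 0% and 1.76% of all genes (GF against SPF, ABX and SPF, ABX and GF). In the former tests, 1304 and 1032 genes had an unadjusted p under 0.05, DESeq2 called 25 and 1 and limma 116 and 14. At an unadjusted p under 0.05 these tests held 0 members where GF or ABX was set against SPF, and 2, *Cd180* and *Traf6*, where ABX was set against GF.

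**Figure D2:**
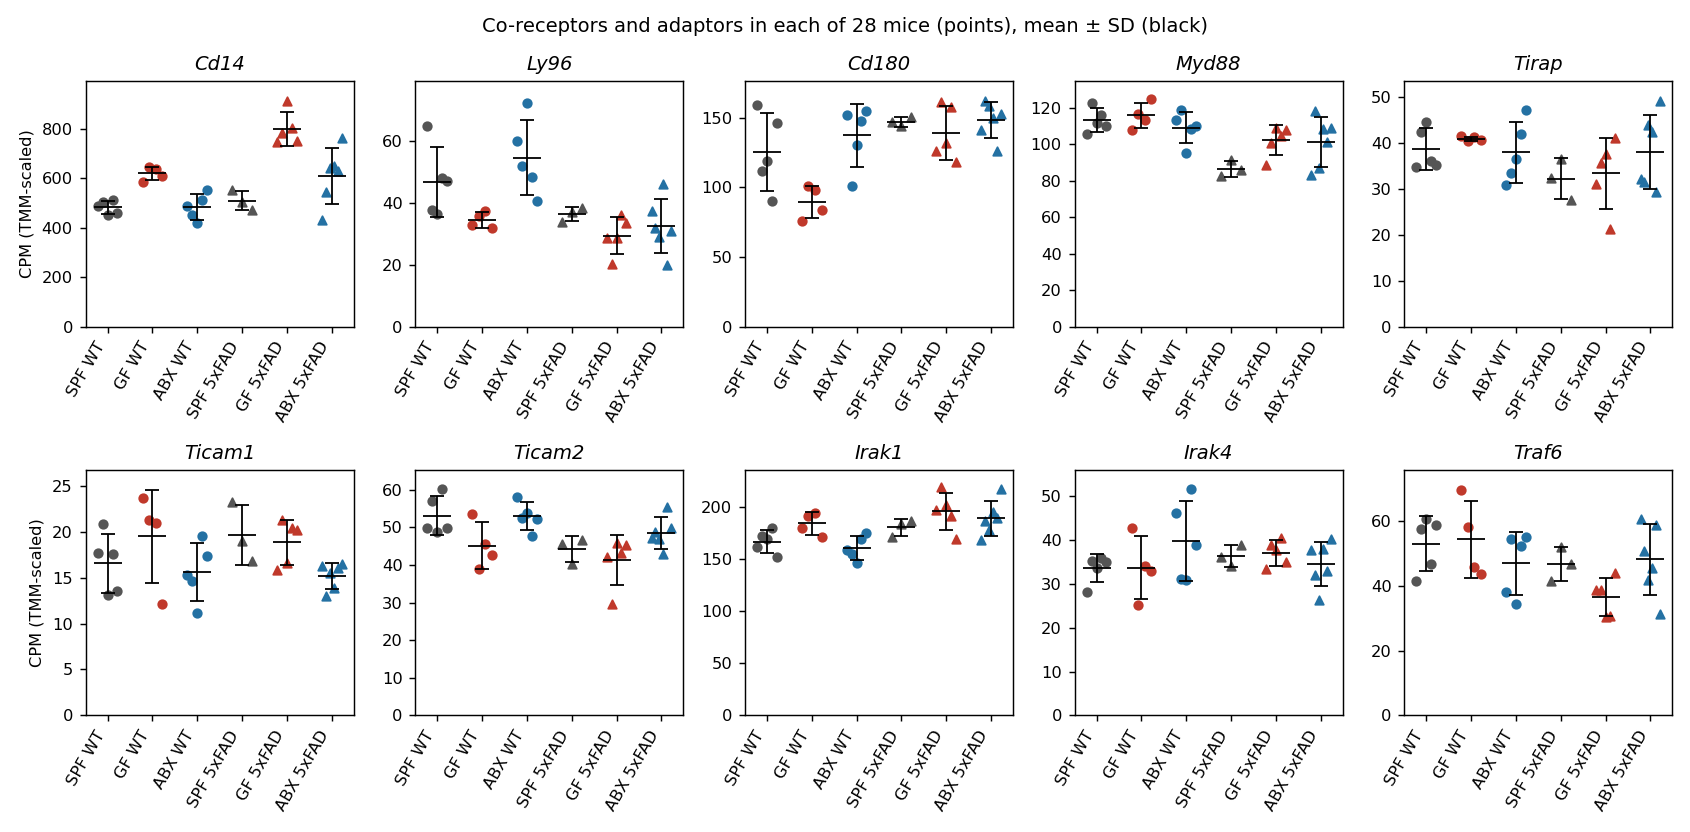
CPM (TMM-scaled, axes from 0) of the 10 members in each of 28 mice, by group, with circles for WT, triangles for 5xFAD and black bars for mean ± SD. The 5 GF 5xFAD mice hold the highest group of *Cd14* values, with a mean of 799 CPM, and the 4 GF WT mice the lowest group of *Cd180* values, with a mean of 89.5 CPM.

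*Cd14*, the lipopolysaccharide co-receptor, measured 746, 751, 783, 802 and 913 CPM in GF 5xFAD mice. It measured 472, 505 and 551 CPM in SPF 5xFAD mice, and 430.1, 636 and 763 CPM as the lowest, median and highest of ABX 5xFAD mice. Every GF 5xFAD mouse was above every SPF 5xFAD mouse, whereas ABX mice overlapped both groups, with FAD_ABX_1151 lowest and FAD_ABX_1482 highest. WT mice had 452, 461, 487, 504 and 512 CPM in SPF, 586, 609.8, 638 and 647 CPM in GF, and 419, 452, 489, 511 and 555 CPM in ABX housing. Within WT, the 4 GF mice were thus above all SPF and ABX mice. In bulk RNA, fewer cells of a type and less RNA per cell cannot be told apart. The group means ± SD ran from 483 ± 25.9 in SPF WT (n = 5) and 485 ± 52.5 in ABX WT (n = 5) over 509.6 ± 39.5 in SPF 5xFAD (n = 3), 610.1 ± 112 in ABX 5xFAD (n = 6) and 620 ± 27.8 in GF WT (n = 4) to 799 ± 67.7 in GF 5xFAD mice (n = 5). In this order, GF 5xFAD was the sole group whose range did not overlap that of the group next to it.

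*Cd14* was 1.57 times as high in GF as in SPF 5xFAD mice (log2 difference 0.65, SE 0.119, edgeR adjusted p 0.00166), and fell by 0.39 on the log2 scale from GF to ABX 5xFAD mice (SE 0.0963, adjusted p 0.0104). Summed plaque-associated markers (10 genes) were 20930 to 22720 CPM in 4 GF 5xFAD mice and 13850 CPM in FAD_GF_201, whose *Cd14* was 751 CPM, against 11340 to 14830 CPM in SPF 5xFAD mice and 10190 to 15890 CPM in ABX 5xFAD mice, highest in FAD_ABX_1482. Neutrophil markers were 65.6 to 274 CPM in SPF 5xFAD and at most 1.38 CPM in GF 5xFAD mice. The part of these markers in both results was not tested. With the fit restricted to the groups compared, the difference between ABX and GF had an adjusted p of 0.116. The 5xFAD effect on *Cd14* was 0.37 in GF (SE 0.108, adjusted p 0.0186) and 0.33 in ABX mice (SE 0.0971, adjusted p 0.0198), against 0.08 in SPF mice (SE 0.116, adjusted p 0.886). The differences between these effects had adjusted p-values of 0.642 (GF against SPF) and 0.777 (ABX and SPF). The GF effect missed the threshold without mouse WT_GF_199 or FAD_GF_184 (adjusted p 0.0501 to 0.0632), and the ABX effect without WT_ABX_910, WT_ABX_911 or FAD_ABX_1482 (0.0511 to 0.0674). In WT mice, *Cd14* fell by 0.35 from GF to ABX (SE 0.107, adjusted p 0.0419) and was 0.36 higher in GF than in SPF mice without passing the test (SE 0.107, adjusted p 0.0774). The former missed the threshold without any of 8 mice in turn, namely WT_GF_229, WT_GF_230, WT_GF_231, WT_ABX_909, WT_ABX_910, WT_ABX_911, FAD_SPF_1148 and FAD_GF_185 (adjusted p 0.0501 to 0.116). The latter passed without FAD_ABX_1151 or FAD_ABX_1482 (0.0187 to 0.0402) and with DESeq2 (0.024) or limma (0.00337). Summed immediate early and stress genes of the isolation response (11 genes) were 810 to 1200 CPM in GF WT and 886 to 1040 CPM in GF 5xFAD mice, against 626 to 871 CPM in the other groups, and their part in the *Cd14* results was not tested.

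*Ly96*, which encodes the lipopolysaccharide-binding partner of TLR4, was highest in ABX WT mice, at 40.7, 48.4, 51.9, 60.1 and 72.3 CPM. ABX 5xFAD mice had 19.95, 31.4 and 46.1 CPM as lowest, median and highest value. ABX WT and ABX 5xFAD mice overlapped only through mouse FAD_ABX_1455, which lay above the lowest WT mouse. The fall was 0.74 on the log2 scale (SE 0.174, edgeR adjusted p 0.00366). The part of the border-associated macrophage markers, 34.0 to 253 CPM in these 5xFAD and 3.8 to 5.9 CPM in these WT mice, and of the monocyte markers, 14.4 to 52.0 and 3.75 to 9.32 CPM, was not tested, nor was it for *Cd14* and *Irak1* in the same comparison. *Ly96* measured 32.0, 33.0, 35.7 and 37.5 CPM in GF WT mice, all under the ABX WT mice, and the rise from GF to ABX was 0.66 (SE 0.196, adjusted p 0.0391). This call was lost without any of the 4 GF WT mice or WT_ABX_909, WT_ABX_910 or WT_ABX_911 (adjusted p 0.0619 to 0.134). SPF WT mice spread from 36.6 to 65.0 CPM, SPF 5xFAD mice from 33.8 to 38.4 CPM and GF 5xFAD mice from 20.2 to 36.0 CPM. Neighbouring groups in the order of *Ly96* means overlapped throughout.

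*Cd14* and *Ly96* were unequally changed within the same libraries. Per kilobase, *Cd14* was 6.83 times *Ly96* in SPF WT mice and 5.84 times in ABX WT mice (geometric means), but 17.9 times in GF 5xFAD mice. GF WT mice were at 11.7, SPF 5xFAD mice at 9.08 and ABX 5xFAD mice at 12.4. Single GF 5xFAD mice ranged from 14.5 to 25.1 and single SPF WT mice from 4.87 to 8.63. These groups, which differ in both genotype and housing, did not overlap. ABX 5xFAD mice, at 7.44 to 20.5, overlapped GF 5xFAD mice. GF WT mice ranged from 11.1 to 12.4, SPF 5xFAD mice from 7.99 to 10.6 and ABX WT mice from 3.76 to 8.85. The longest transcripts have 52.5% GC for *Cd14* and 41.1% for *Ly96*, so a ratio within a library does not remove its GC tilt. The part of the tilt in these ratios was not tested.

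*Cd180*, the TLR4-like receptor that pairs with MD-1, was lowest in GF WT mice, at 75.6, 84.0, 97.8 and 100.7 CPM. GF 5xFAD mice measured 118, 126, 132, 158 and 161 CPM, and ABX WT mice 101.1, 131, 148, 152 and 155 CPM. Both groups lay above all GF WT mice, WT_ABX_910 by a small margin. *Cd180* rose 1.55-fold with 5xFAD in GF mice (log2 difference 0.64, SE 0.14, edgeR adjusted p 0.00166) and 1.53-fold from GF to ABX in WT mice (0.62, SE 0.14, adjusted p 0.00851). Border-associated macrophage markers were 10.7 to 43.9 CPM in GF WT and 3.8 to 5.9 CPM in ABX WT mice, and their part in the differences of *Cd180*, *Ly96* and *Cd14* between these groups was not tested. SPF WT mice had 90.0, 112, 119, 147 and 159 CPM and overlapped GF WT mice through mouse WT_SPF_928. Their difference was -0.49 (GF less SPF, SE 0.14, adjusted p 0.0688) and passed without that mouse (-0.58, adjusted p 0.0304) and with DESeq2 (adjusted p 0.0236). The 3 SPF 5xFAD mice were close together, at 144, 147 and 150.4 CPM, and ABX 5xFAD mice had 126, 151 and 162 CPM as lowest, median and highest value. The 5xFAD effect was 0.23 (SE 0.149) in SPF and 0.11 (SE 0.125) in ABX mice, and neither passed (adjusted p 0.574 and 0.616). The interaction of ABX against GF was -0.52 (SE 0.187, adjusted p 0.146).

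*Myd88*, the adaptor shared by most Toll-like receptors and the interleukin-1 receptor family, measured 82.7, 86.0 and 91.4 CPM in SPF 5xFAD mice. SPF WT mice had 106, 110.3, 112, 116 and 123 CPM, so the groups did not overlap (as for 16.9% of all genes in this comparison). *Myd88* fell by 0.39 on the log2 scale (SE 0.105, edgeR adjusted p 0.0265). The adjusted p was 0.0528 to 0.179 without WT_SPF_925, WT_SPF_928 or any of the 3 SPF 5xFAD mice, and 0.0981 without the filter on low counts. Summed neutrophil markers were 65.6 to 274 CPM in the same SPF 5xFAD mice and 0 to 0.336 CPM in SPF WT mice, and their part in this result was not tested. In GF housing *Myd88* was 88.7 to 109 CPM for 5xFAD and 108 to 125 CPM for WT mice, and after ABX 83.0 to 118 CPM for 5xFAD and 95.5 to 119 CPM for WT mice, so the genotypes overlapped. The differences were -0.18 (SE 0.0948, adjusted p 0.219) for GF and -0.11 (SE 0.0858, adjusted p 0.441) in ABX mice. With offsets for GC content, added after seeing the data, the ABX difference passed as a fall of 0.27 (adjusted p 0.0269), and scaled to library size alone the GF difference passed as a fall of 0.30 (adjusted p 0.0188).

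Of the other adaptors, *Ticam2* (TRAM), the bridge between TLR4 and TRIF, was 48.8 to 60.2 CPM in SPF WT and 40.3, 45.6 and 46.7 CPM in SPF 5xFAD mice. These ranges did not overlap, yet the difference of -0.27 (SE 0.129) did not pass in edgeR (adjusted p 0.342) and passed in limma (0.0365). Its F test over the 6 groups stood at the threshold and was lost without any of 19 single mice, with adjusted p-values of 0.0538 to 0.0886. *Ticam1* (TRIF) was the lowest member, with 13.0, 15.8 and 16.5 CPM as lowest, median and highest value in ABX 5xFAD mice against 16.8, 19.0 and 23.2 CPM in SPF 5xFAD mice. The groups did not overlap, as for 2.39% of all genes, and the difference of -0.37 (SE 0.187) did not pass (adjusted p 0.713). *Tirap*, the bridge between TLR4 or TLR2 and MYD88, ranged from 21.3 to 49.0 CPM over all mice, and its 9 log2 differences lay between -0.29 and 0.24.

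Among the kinases, *Irak1* was 147, 155, 158, 169.7 and 176 CPM in ABX WT mice and had 169, 188 and 218 CPM as lowest, median and highest value in ABX 5xFAD mice. The groups overlapped between the 2 highest WT and the lowest 5xFAD mouse, FAD_ABX_1151. The rise was 1.18-fold (log2 difference 0.23, SE 0.0749, edgeR adjusted p 0.0339). It missed the threshold without WT_ABX_909, WT_ABX_910, WT_ABX_911, FAD_ABX_1455, FAD_ABX_1460 or FAD_ABX_1482 (adjusted p 0.0506 to 0.0947), with limma (0.0539), with 26 mice (0.05), without the filter on low counts (0.0879), with only the groups compared (0.119), with library size alone (0.16, adjusted p 0.141), with gene length offsets (0.16, adjusted p 0.252) and with GC content offsets (0.09, adjusted p 0.492). Its F test over the 6 groups was lost with GC content offsets (0.482), library size alone (0.328), gene length offsets (0.0742) and no filter (0.124), and without WT_ABX_909, WT_ABX_910, WT_ABX_911 or FAD_GF_182 (0.0513 to 0.0609). *Irak1* went from 152 to 179.5 CPM in SPF WT, 171 to 194 CPM in GF WT, 171 to 186 CPM in SPF 5xFAD and 169.7 to 219 CPM in GF 5xFAD mice, with overlap between neighbours. *Irak4*, the kinase upstream of it, ranged from 25.1 to 51.5 CPM over all mice, and its 9 log2 differences lay between -0.20 and 0.24 with no call.

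*Traf6*, the ubiquitin ligase downstream of the kinases, was lowest in GF 5xFAD mice, at 30.3, 30.7, 38.7, 38.8 and 44.1 CPM. GF WT mice had 43.7, 45.9, 58.1 and 69.5 CPM, and the groups met through mouse FAD_GF_201, which lay above the lowest WT mouse. *Traf6* fell by 0.57 on the log2 scale with 5xFAD in GF mice (SE 0.18, edgeR adjusted p 0.0274). The call was lost without WT_GF_199, WT_GF_229, FAD_GF_184 or FAD_GF_185 (adjusted p 0.0687 to 0.149). The difference of 0.40 from GF to ABX 5xFAD mice (SE 0.164, adjusted p 0.116) passed without FAD_ABX_1482 (0.50, adjusted p 0.0281). The 5xFAD effect was -0.18 (SE 0.197) in SPF and 0.04 (SE 0.163) in ABX mice, and neither passed.

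**Figure D3:**
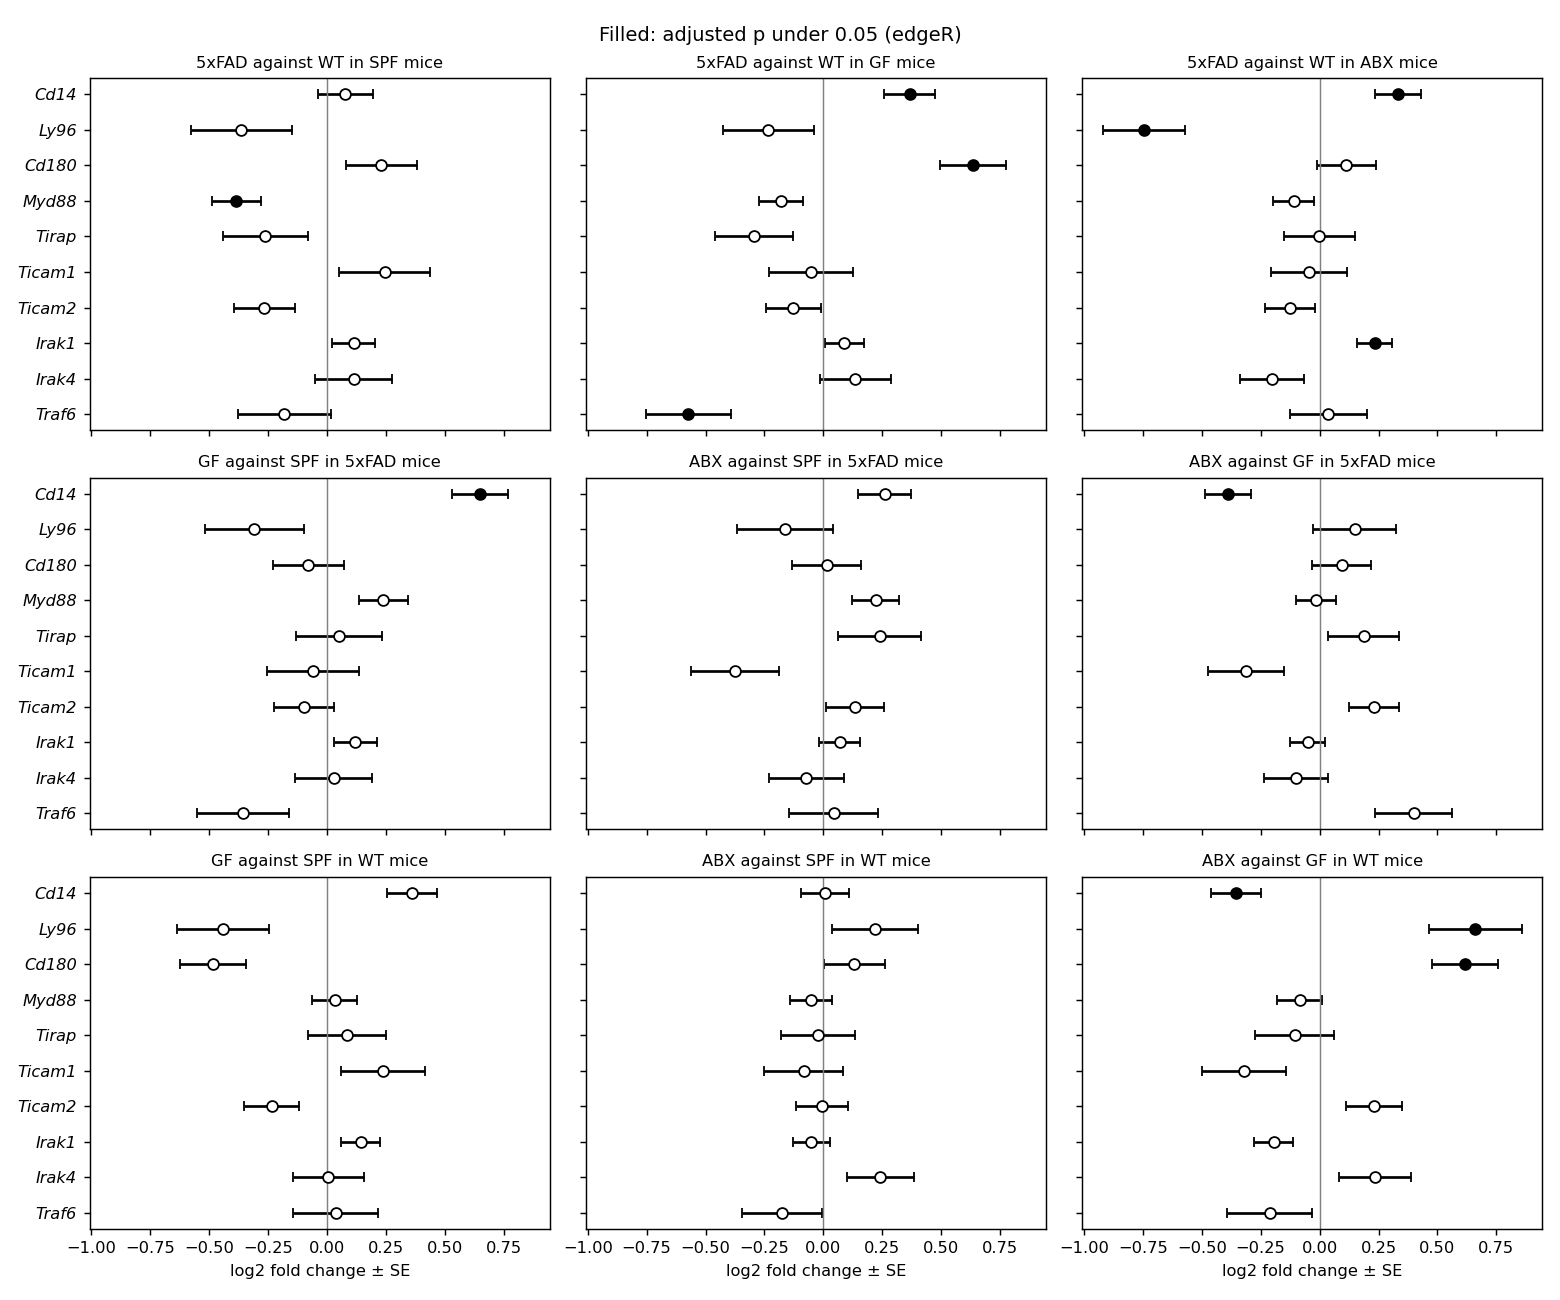
Log2 fold change ± SE (edgeR) of the 10 members in 9 comparisons of 2 groups, filled where the adjusted p was under 0.05. *Cd14* is filled in 5 panels, *Cd180* and *Ly96* in 2 each, and *Myd88*, *Irak1* and *Traf6* in 1 each.

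The GC tilt of the libraries differed between the groups in which *Cd14* and *Ly96* differed. The 9 GF libraries, all with a positive tilt, had *Cd14* between 586 and 913 CPM. The median tilt was 0.22 in GF WT, 0.329 in GF 5xFAD, 0.0342 in ABX 5xFAD and negative in the other groups. The longest transcripts have 52.5% GC for *Cd14*, 53.5% for *Myd88*, 46% for *Cd180* and 41.1% for *Ly96*. With GC content offsets the difference of *Cd14* between GF and SPF 5xFAD mice was as large (0.65, edgeR adjusted p 0.00229), and so were those of *Cd180* between GF 5xFAD and GF WT mice (0.63, adjusted p 0.00287) and of *Traf6* there (-0.58, adjusted p 0.0169). *Ly96* between ABX 5xFAD and ABX WT mice was -0.61 (adjusted p 0.0113). The calls between ABX and GF WT mice were lost, with *Cd14* at -0.27 (adjusted p 0.216), *Ly96* at 0.39 (0.295) and *Cd180* at 0.52 (0.0649). The 5xFAD effect on *Cd14* then was 0.29 in GF (adjusted p 0.0676) and 0.19 in ABX mice (0.223).

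**Figure D4:**
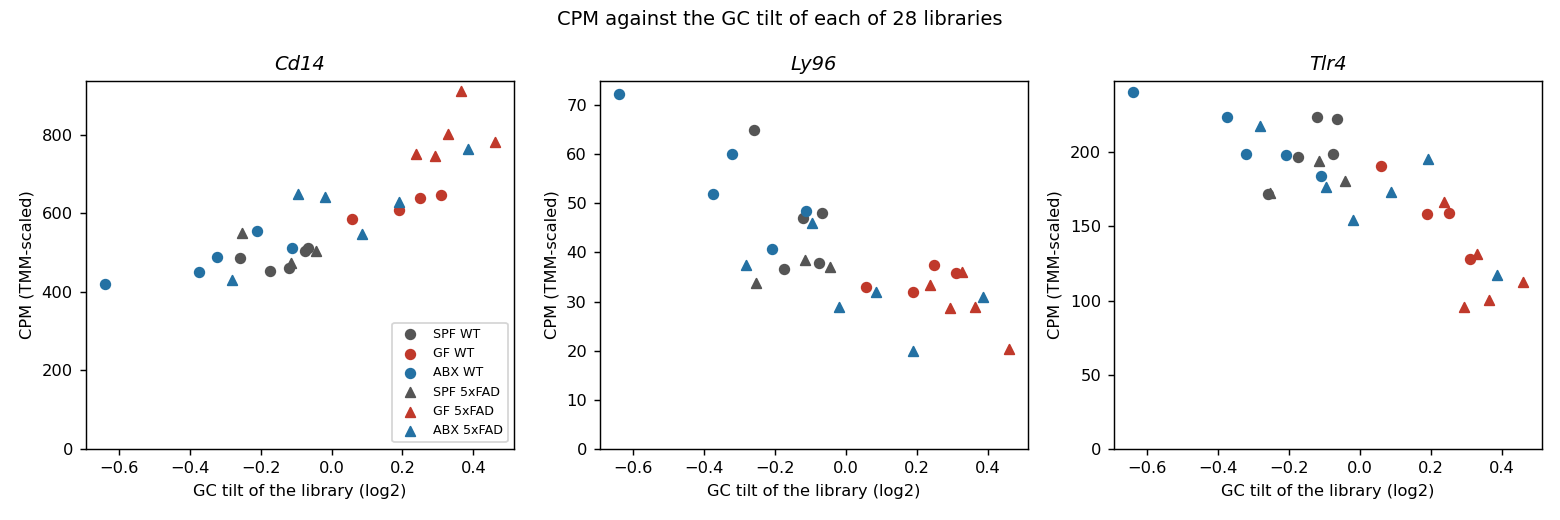
CPM of *Cd14*, *Ly96* and *Tlr4* (axes from 0) against the GC tilt of each of the 28 libraries in log2 units, coloured by group. GF libraries, in red, lie at 0.0585 or more and have *Cd14* values of 586 CPM or more, in the range of several ABX 5xFAD libraries. *Ly96* and *Tlr4* of GF libraries overlap those of other groups.

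Of 12 Toll-like receptors, the receptors these genes serve, 1 rose with 5xFAD under SPF, 2 under GF and 4 under ABX conditions, and 0 fell. Over all genes tested, 3.73%, 9.43% and 9.45% rose with 5xFAD under these conditions and 0.837%, 6.2% and 4.98% fell, so that the share of receptors that rose (8.33%, 16.7% and 33.3%) is to be read against the former values. In the same comparisons, border-associated macrophage markers were 34.0 to 253 against 3.8 to 5.9 CPM under ABX and neutrophil markers 65.6 to 274 against at most 0.336 CPM under SPF conditions, and their part in the calls of the receptors and of the further lists of the pathway was not tested. *Tlr2*, the receptor for bacterial lipoproteins, rose in all 3 conditions (log2 differences 0.33, 0.55 and 0.40 in SPF, GF and ABX mice, edgeR adjusted p 0.0477, 7.62e-05 and 0.00115). *Tlr4*, the receptor of CD14 and MD-2, was 95.9 to 167 CPM in GF 5xFAD and 173 to 194 CPM in SPF 5xFAD mice, and these ranges did not overlap. It fell by 0.59 in GF against SPF 5xFAD mice (SE 0.161, adjusted p 0.0163) and was 0.51 higher in ABX than in GF 5xFAD mice (SE 0.137, adjusted p 0.0173), the reverse of *Cd14* in both comparisons. *Cd14* was 23.7 times *Tlr4* per kilobase in GF 5xFAD, 9.85 times in SPF 5xFAD and 8.45 times in SPF WT mice (geometric means). It was 13.9 times *Tlr4* in GF WT, 12.5 times in ABX 5xFAD and 8.2 times in ABX WT mice. Single GF 5xFAD mice, at 15.9 to 32, overlapped GF WT (10.9 to 17.8) and ABX 5xFAD mice (6.97 to 23). The part of the GC tilt in these ratios was not tested.

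*Ly86*, the partner of *Cd180*, rose with 5xFAD in GF mice (0.70, SE 0.166, edgeR adjusted p 0.00359) and from GF to ABX in WT mice (0.81, SE 0.166, adjusted p 0.0048), and fell from SPF to GF in WT mice (-0.63, SE 0.166, adjusted p 0.0445), where *Cd180* did not pass. *Cd180* was 0.0206 to 0.0254 times *Ly86* per kilobase in the 6 groups (geometric means), and 0.0154 to 0.0337 times in single mice. Of 6 tested receptor partners and chaperones, 1, 3 and 3 rose with 5xFAD in SPF, GF and ABX mice (16.7%, 50% and 50%, against 3.73%, 9.43% and 9.45% of all genes). *Lbp*, the serum protein that passes lipopolysaccharide to CD14, had at most 19 reads in a library and was not tested.

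Downstream, 0 of 17 tested kinases and ubiquitin ligases rose with 5xFAD, and 1, 2 and 2 fell in SPF, GF and ABX mice (5.88%, 11.8% and 11.8%, against 0.837%, 6.2% and 4.98% of all genes). *Peli1*, a ligase of the same pathway, fell in all 3 (-0.35, -0.38 and -0.36, edgeR adjusted p 0.0233, 0.00215 and 0.00141). The smaller lists that follow have the same shares of all genes as background. Of 10 inhibitors, 0 passed in SPF and GF mice, where 1 each had an unadjusted p under 0.05, and *Tnip1* rose in ABX mice (0.55, SE 0.162, adjusted p 0.0216). Of 6 transcription factors, *Irf7*, which drives interferon genes, rose in SPF (2.33, adjusted p 0.015) and ABX mice (1.89, adjusted p 0.0115), *Nfkb1* fell in GF mice (-0.49, adjusted p 0.000469) and *Irf5* fell in ABX mice (-0.18, adjusted p 0.0383). Of 13 tested target cytokines and enzymes, 2, 3 and 3 rose, among them the chemokines *Ccl3* (2.72, 3.58 and 2.98, adjusted p 1.79e-07, 1.35e-09 and 4.52e-09) and *Ccl4* (1.97, 2.88 and 2.14, adjusted p 0.000375, 8.43e-07 and 1.49e-05), and 1 fell in ABX mice. The 4 tested interleukin receptors that signal through MYD88 held 0 calls in each of these comparisons, with 1, 2 and 2 at an unadjusted p under 0.05.

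The genes whose log2 CPM followed a member most closely over the 28 mice were chosen from 8929 genes for the highest correlation, and are given as a description. All values of a mouse share its library, its depth and its GC tilt. *Cd14* was followed by *Tecr* (Pearson r 0.956), *1110008F13Rik* (0.956) and the complement gene *C1qb* (0.954), and *Ly96* by the transcription factor gene *Maf* (0.885), *Zscan26* (0.874) and *Gpr34* (0.873). For *Cd180* they were *Samsn1* (0.827), *Evi2a* (0.774) and *Ly86* (0.763), for *Myd88* *Lgmn* (0.80) and *Prkab1* (0.80), for *Irak1* *Laptm5* (0.904), *Man2c1* (0.895) and *Yif1b* (0.862), and for *Ticam2* *Tpp2* (0.788), *Cd300a* (0.742) and *Aftph* (0.738). Among pairs of members, *Cd14* and *Irak1* went together most (r 0.774) and *Ly96* and *Irak1* were most opposed (r -0.717). These r values include the differences between the groups. With the group means subtracted, they were 0.629 and -0.367, and *Cd180* and *Ticam2* were most opposed (-0.513). For the genes named above, r was then between 0.47 (*Cd180* and *Ly86*) and 0.865 (*Cd14* and *C1qb*).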

How the data were processed

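RNA of sorted hippocampal microglia from 28 mice was sequenced as 50-base single reads after SMARTer amplification and Nextera XT tagmentation. The authors mapped reads to GRCm38 with STAR (2.7.2 per the submitters' processing notes) and counted them with featureCounts (1.6.2) against GENCODE M21. The table deposited by the authors holds raw counts and no normalized value. The processing notes name a human build, GRCh38.p12, but the gene spans of 8 of the 10 members match M21. A set of 92 spike-in rows, with at most 12 reads in a library, was left out.

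Groups were taken from the labels. Mouse FAD_GF_201 was used as GF 5xFAD after its title and genotype, and its description names it WT. Counts were scaled by TMM in edgeR 4.0.16 (R 4.3.3). Genes were filtered by filterByExpr (minimum count 10, minimum total 15), which left 15298 genes, and tested by the quasi-likelihood F test in 1 model with a mean per group. P-values were adjusted by Benjamini-Hochberg across the tested genes and called under 0.05. CPM and RPKM use TMM-scaled library sizes and the lengths in the table. Marker sums are summed CPM of library totals, without TMM factors. Correlations used log2 CPM with a prior count of 2. Alternatives were RLE factors, library size alone, other filters, DESeq2 1.42.0, limma 3.58.1 (voomWithQualityWeights), only the groups compared, 26 mice without FAD_ABX_1151 and FAD_ABX_1482, each mouse left out and, added after seeing the data, offsets for GC content (known for 96.7% of genes tested) and gene length. The scripts were tested on simulated counts.

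The members, gene lists and tests were chosen with earlier results of these data known. All 10 members are named. Of each pathway list, at most the 3 called genes with the largest change in a comparison were eligible, and for each member called over the 6 groups the 3 genes with the highest correlation and an average of at least 3 log2 CPM. Some results that this rule covers are not reported here. Promoter sequences are from RefSeq for 7 members.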

Additional observations from a re-analysis of the deposited data

Results flagged for a closer look

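*Ticam2* in mouse FAD_GF_182 measured 29.75 CPM, far below the other 4 mice of its group, which had 42.2 to 45.9 CPM. The gap was 0.773 of the range of the group, above the critical value of 0.71 for 5 mice. Chance would set a mouse apart in about 1 of 20 groups, and 50 groups of a member were examined.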

How the results depend on the processing

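No paired analysis was possible because the mouse numbers in the labels are unique and no group shares any with another. Of the differences of single members that were called in the main fit or in an alternative, 0 reversed direction. Among those called in neither, 168 changed sign, counted once per alternative. The calls of *Cd180* between GF 5xFAD and GF WT mice, of *Ly96* between ABX 5xFAD and ABX WT mice and of *Cd14* between GF and SPF 5xFAD mice were kept in all 38 alternatives, and the F tests of *Cd14*, *Ly96* and *Cd180* in all 37 that apply. The number of members called moved by more than 1.5 times, or with a mouse left out, as follows. For 5xFAD against WT it was 0 without the filter on low counts and 2 with limma in SPF mice (0 to 1 with a mouse left out), 1 to 3 with a mouse left out in GF mice, and 1 with library size alone and 1 with only the groups compared in ABX mice (1 to 3 with a mouse left out). For ABX against GF 5xFAD it was 2 with library size alone and 0 with only the groups compared (1 to 2 with a mouse left out). For GF against SPF WT, where 0 were called, it was 2 with DESeq2 and with 26 mice, and 1 with at least 10 counts in every library, with limma, with only the groups compared and with gene length offsets (0 to 1 with a mouse left out). For ABX against GF WT it was 0 with GC content offsets (1 to 3 with a mouse left out), and over the 6 groups 3 without the filter (4 to 7 with a mouse left out). Of the smaller moves, GC content and gene length offsets each gave 2 calls for 5xFAD against WT in GF and in ABX mice, and 4 and 5 over the 6 groups. *Cd14* also missed the threshold for 5xFAD against WT with gene length offsets in GF mice (0.0994) and with library size alone (0.0572) and only the groups compared (0.101) in ABX mice, and for ABX against GF WT with library size alone (0.0529) and no filter (0.0564). *Ly96* missed it there with gene length offsets (0.0628). The cause of these changes was not tested. Library size alone moved the median of all genes by -0.125 (log2) between GF 5xFAD and GF WT mice, where *Cd14* then was 0.24 higher (adjusted p 0.094), and the calls over all genes there went from 1442 higher and 949 lower to 1107 and 1919. Likewise, 1445 higher and 762 lower became 1160 and 1311 between ABX 5xFAD and ABX WT mice. Over all genes, GF against SPF WT gave 248 calls, but 721 with DESeq2, 1631 with limma, 1286 with only the groups compared, 659 with 26 mice and 139 with GC content offsets, and ABX against GF WT gave 1053, but 1618 with DESeq2, 2025 with limma and 208 with GC content offsets. With only the groups compared, ABX against GF 5xFAD went from 1621 to 251 calls, 5xFAD against WT from 699 to 1340 in SPF and from 2207 to 1321 in ABX mice. With limma, GF against SPF 5xFAD went from 1962 to 3872, 5xFAD against WT in SPF mice to 2154 and the 6 groups from 5079 to 7868. The interaction of ABX against GF gave 269, but 576 with DESeq2, 67 with only the groups compared and 169 with gene length offsets. The comparisons with 0 calls gave at most 134. Groups of 3 to 6 mice limited the precision. Each member had at least 188 reads in every library, but reads after PCR are not independent molecules, and the share of library noise in the spread was not tested.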
